A study of Homo sapiens with 9 samples.

Results

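A set of 39 genes that make ribosomes in the nucleolus was examined in ALL-SIL, an established human T-ALL cell line (T-cell acute leukaemia). The genes were chosen by name, as nucleolar and RNA polymerase I genes that are typical targets of the transcription factor MYC. The rule uses no measured value, although earlier results of these libraries were known when the names were listed. Each of the 39 symbols matched 1 of the 58096 gene identifiers in the deposited tables, and all 39 passed the filter on low counts that left 18554 genes to be tested. Polyadenylated RNA of 9 libraries was sequenced. All 9 came from electroporated cells that received an siRNA, a small duplex that guides the cutting of mRNAs matching it. The labels give 3 libraries, replicates 1 to 3, to each of TLX1 siRNA1, TLX1 siRNA2 and the control NTC siRNA. Dose, siRNA sequence and harvest time are not in the labels. Nothing in the labels ties replicates to separate cultures, and the p-values then cover spread among these samples alone, which may be technical.

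TLX1, the homeobox oncogene that both siRNAs are named for, was measured first. Levels are in CPM, counts scaled to a common library size, and 3 values in a row belong to replicates 1, 2 and 3. TLX1 stood at 184, 167 and 183 CPM under NTC, 406, 458 and 387 CPM under siRNA1 and 198, 231 and 179 CPM under siRNA2. Its mean under siRNA2 (202.9 CPM) was not below its mean under NTC (177.9 CPM). The siRNA1 values all exceeded the others, and TLX1 mRNA was 2.33-fold higher there than under NTC (log2 fold change of 1.22 with SE 0.08 and an edgeR adjusted p = 2.05e-10), which goes against that label. Directions below are therefore those of the labels, "siRNA1" stands for the libraries labelled so, and no difference is taken as a response to less TLX1. The libraries held 58305492 to 99524663 gene counts. Summed T cell markers (CD3D, CD3E, CD3G, CD7, CD5, CD2 and LCK) ranged from 1996.7 to 2114.8 CPM under NTC, from 2009.6 to 2205.6 CPM under siRNA1 and from 1767.4 to 2256 CPM under siRNA2. Within the list, CD7 was higher under siRNA1 than under NTC (0.53 on the log2 scale) and CD3G (−0.44) and CD2 (−0.63) were lower by the edgeR test with the replicate number as a block, and the other 4 did not pass. Their part in the results below was not tested. Of the markers of other cells, 5 B cell genes summed to 19.9 to 32.5 CPM in the 9 libraries. The 5 myeloid, 5 erythroid and 5 epithelial or fibroblast genes were each under 1 CPM in every library, HBA1 with 0 counts.

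Ribosome production starts when RNA polymerase I transcribes ribosomal DNA in the nucleolus. Small nucleolar ribonucleoproteins (snoRNPs) then guide chemical modification and cleavage of the transcript, and separate sets of assembly factors build the small and the large ribosomal subunit. Growing cells, leukaemic T cells among them, keep this programme high, and MYC binds the E-box CACGTG near the starts of many of its genes.

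The E-box was looked up first, because it is the sequence the set is known for. RefSeq promoter windows (GRCh38.p14, 250 bases before to 50 bases after the annotated start, 300 bases in all) were matched by symbol for 33 of the 39 genes. The 6 letters CACGTG, which read the same on both strands, were found in 12 of the 33 windows (36.4%). They were found in 1042 of 10451 windows of genes tested (9.97%) and in 7.26% of all 35116 windows. The members were listed as typical MYC targets, so a higher share among them may follow from that choice and is not a finding. The windows of genes tested were not limited to genes at the members' expression levels. Each of the 12 windows held 1 match, whose first base lay at most 15 bases before or 35 bases after the annotated start. The windows with a match were those of MYBBP1A, FBL, RRP9, UTP20, WDR43, NOP14, NAT10, BYSL, LTV1, PES1, NOP2 and MRTO4. A match describes the letters and does not show that MYC was bound. Among the 8 matched members that fell under siRNA1 (described below), 2 held the E-box (25.0%), WDR43 and BYSL, and among the other 25 it was 10 (40.0%). The following 30-base stretches show the shared motif in those 2 genes and in 6 that did not pass that comparison, 5′ to 3′ on the gene's strand, with the E-box in capitals.
WDR43, chr2:28894658-28894687, plus strand: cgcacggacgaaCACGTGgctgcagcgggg
BYSL, chr6:41921515-41921544, plus strand: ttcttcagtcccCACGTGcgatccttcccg
FBL, chr19:39846356-39846385, minus strand: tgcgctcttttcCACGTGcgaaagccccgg
RRP9, chr3:51941892-51941921, minus strand: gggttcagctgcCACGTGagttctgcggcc
UTP20, chr12:101280083-101280112, plus strand: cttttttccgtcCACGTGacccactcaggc
NOP14, chr4:2963374-2963403, minus strand: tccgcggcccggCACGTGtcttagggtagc
NAT10, chr11:34105602-34105631, plus strand: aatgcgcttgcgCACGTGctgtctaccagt
PES1, chr22:30591880-30591909, minus strand: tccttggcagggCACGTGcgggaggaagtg
The flanking bases differed from gene to gene, and the hexamer was what the 8 stretches were chosen to share.

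The members spanned a wide range of expression. Levels between genes are compared per exon length, as CPM per kilobase of exon (RPKM) averaged over the 9 libraries. NPM1, the nucleolar chaperone nucleophosmin, was highest at 339 RPKM, followed by NCL, the histone chaperone and RNA-binding protein nucleolin, at 225 RPKM. FBL, the methyltransferase of box C/D snoRNPs, stood at 134 RPKM and NOLC1, a snoRNP chaperone that links the nucleolus with Cajal bodies, at 112 RPKM. These 4 were the members above 100 RPKM, 26 lay from 10 to 100 RPKM and 9 below 10 RPKM. By this measure the lowest were PPAN, a large subunit assembly factor, at 2.74 RPKM, UTP15, a small subunit processome protein, at 3.86 RPKM and RRP12, a factor in the maturation and export of pre-ribosomes, at 4.15 RPKM. Of the exon bases of PPAN, 59.8% are shared with other genes. Reads there were left unassigned while the whole length was divided by, so its RPKM is too low and its rank uncertain. Together the 39 genes took 0.794%, 0.808% and 0.732% of gene counts in NTC replicates 1 to 3. They took 0.682%, 0.794% and 0.639% in siRNA1 replicates 1 to 3, and 0.755%, 0.86% and 0.736% in siRNA2 replicates 1 to 3. The lowest shares were thus those of siRNA1 replicates 3 and 1, and the highest that of siRNA2 replicate 2.

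**Figure D1:**
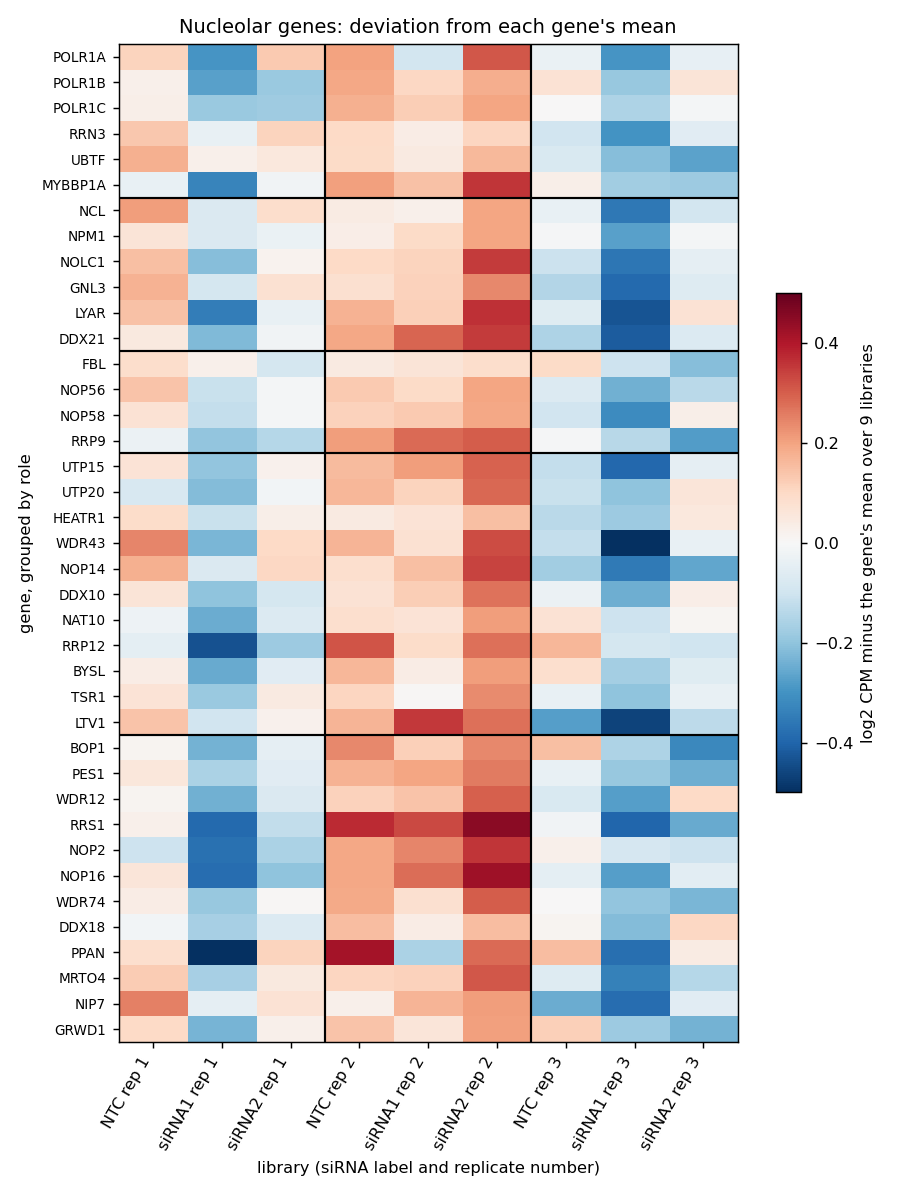
Log2 CPM of each of the 39 genes (rows, grouped by role from RNA polymerase I at the top to large subunit assembly at the bottom) minus that gene's mean over the 9 libraries (columns, grouped by replicate number). Colours end at 0.5 in either direction. The 3 replicate 2 libraries are red except for POLR1A and PPAN in siRNA1 replicate 2, and siRNA1 replicates 1 and 3 are blue except for UBTF and FBL in replicate 1.

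The first comparison asked how the nucleolar genes differed between the libraries labelled siRNA1 and NTC. All 39 fitted fold changes were below 0, against 48.9% of all genes tested and 54.8% of the 9903 genes with a mean of 5 CPM or more, as every member had. With the replicate number as a block, 10 of 39 members fell and 0 rose. They were POLR1A, POLR1B, NCL, LYAR, WDR43, RRP12, BYSL, RRS1, PPAN and GRWD1. The 10 are 25.6% of the members, where 5.93% of all genes tested fell, 5.48% rose and 11.4% passed in either direction, and where 9.1% of genes at 5 CPM or more fell. Unadjusted, 24 of 39 (61.5%) had a p under 0.05, against 23.9% of all genes. In bulk libraries, fewer cells with an mRNA and less of it per cell cannot be told apart. The median log2 fold change of the 39 was −0.16, against 0.00 over all genes tested, and the members ranged from −0.58 (PPAN) to −0.07 (LTV1).

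These calls depended on the replicate block. Without it, edgeR called 0 of 39 members and 1.28% of all genes, the median log2 fold change was −0.15, and 2 of 39 members had an unadjusted p under 0.05 (5.13%), below the share of all genes (10.3%). Those were POLR1A and PPAN. With the block, limma-voom called 10 members and DESeq2 13. The count was 2 without NTC replicate 1, 20 without NTC replicate 2, 4 without NTC replicate 3, 2 without siRNA1 replicate 1 and 4 without siRNA1 replicate 3. Of the members called with all libraries, BYSL and GRWD1 lost their call without siRNA1 replicate 2. The share of all genes called in each of these fits is not given here. A changed count therefore cannot be read as particular to the members. POLR1A and PPAN were the members that passed in all 9 fits that left out 1 library.

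**Figure D2:**
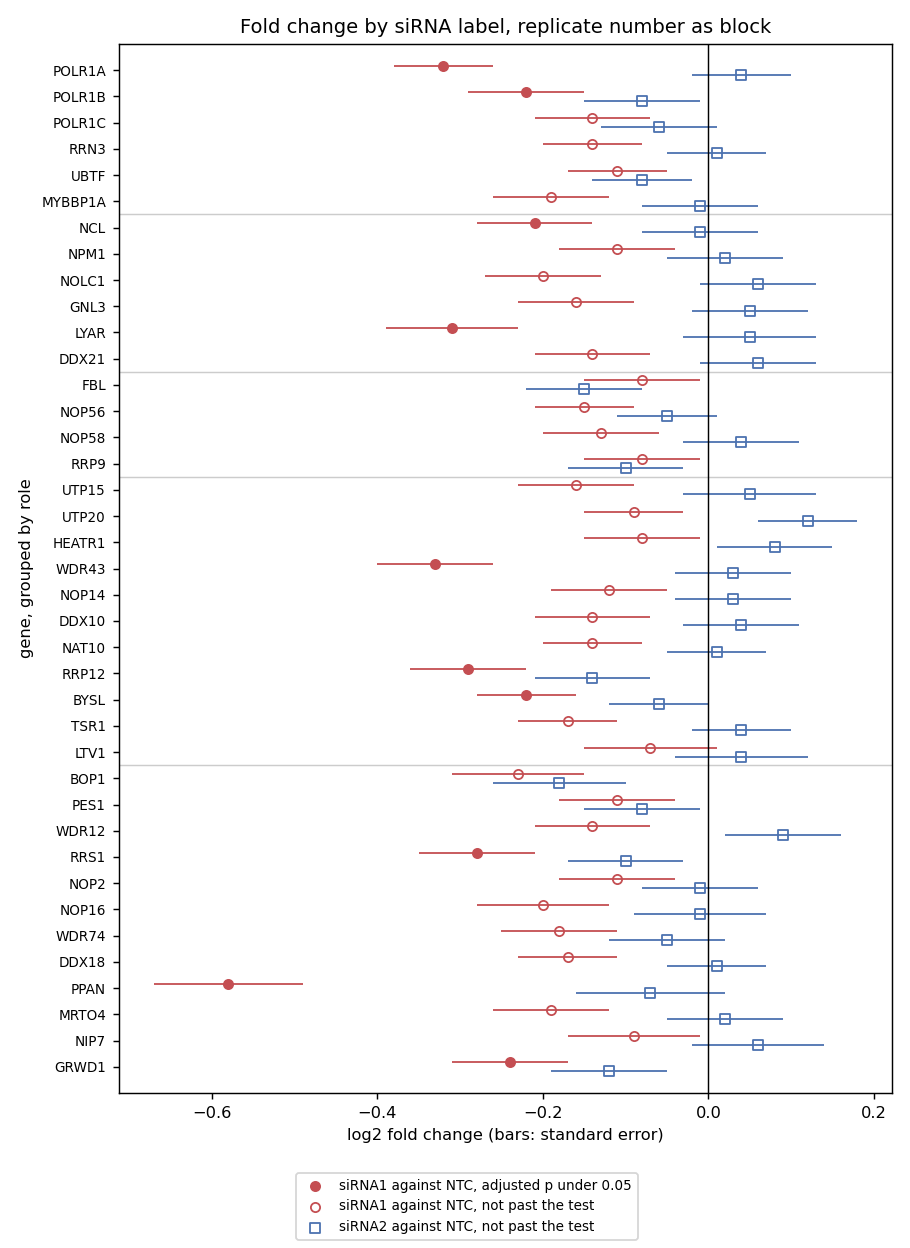
Log2 fold change of each of the 39 genes against NTC for the siRNA1 label (circles) and the siRNA2 label (squares), with standard errors, from the fit with the replicate number as a block. Filled circles mark the 10 genes past an adjusted p of 0.05. All circles lie left of 0, while 18 of the 39 squares do.

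Among the 6 genes of RNA polymerase I transcription, 2 fell and 4 did not pass. Gene positions are those of GENCODE 29 on GRCh38. POLR1A (ENSG00000068654.15, chromosome 2 from 86020216 to 86106155 on the minus strand) encodes the largest subunit of RNA polymerase I. It stood at 147, 157 and 133 CPM under NTC, 111, 128 and 111 CPM under siRNA1 and 149, 169 and 132 CPM under siRNA2. All 3 siRNA1 values lay below all 3 NTC values, and the siRNA2 values ran from just below the lowest to above the highest NTC value. POLR1A was 1.25-fold lower under the siRNA1 label (log2 fold change of −0.32 with SE 0.06 and an edgeR adjusted p = 0.00113), with means of 145 ± 11.9 and 117 ± 9.65 CPM (SD, n = 3 each). Without the block its adjusted p was 0.249, and with the block the call was lost when the 3 replicate 1 libraries were left out. POLR1B (ENSG00000125630.15, chromosome 2 from 112541915 to 112577150 on the plus strand), the second largest subunit, stood at 73.5, 82.6 and 75.9 CPM under NTC, 59.8, 77.4 and 63.2 CPM under siRNA1 and 63.5, 81.9 and 75.5 CPM under siRNA2. Its siRNA1 and NTC values overlapped, because siRNA1 replicate 2 was above NTC replicates 1 and 3 (log2 fold change of −0.22 with SE 0.07 and an edgeR adjusted p = 0.0347, 0.598 without the block). POLR1C, a subunit shared with RNA polymerase III (−0.14), RRN3, which brings the polymerase to the promoter (−0.14), UBTF, which binds the ribosomal DNA promoter and gene body (−0.11), and MYBBP1A, a nucleolar partner of transcription factors (−0.19), did not pass. The bracketed values are log2 fold changes.

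Of the 6 nucleolar scaffold and multifunctional proteins, NCL and LYAR fell and 4 did not pass. NCL (ENSG00000115053.15, chromosome 2 from 231453531 to 231483641 on the minus strand) stood at 1789, 1593 and 1509.9 CPM under NTC, 1473, 1574 and 1209 CPM under siRNA1 and 1643, 1773 and 1452 CPM under siRNA2. Its lowest library was siRNA1 replicate 3, and siRNA1 replicate 2 lay inside the NTC range (log2 fold change of −0.21 with SE 0.07 and an edgeR adjusted p = 0.0471, 0.616 without the block). LYAR (ENSG00000145220.13, chromosome 4 from 4267701 to 4290169 on the minus strand), a nucleolar zinc-finger protein of early pre-ribosomes, stood at 78.3, 79.7 and 67.9 CPM under NTC, 55.7, 76.9 and 52.5 CPM under siRNA1 and 68.9, 91.2 and 74.4 CPM under siRNA2. It was 1.24-fold lower under the siRNA1 label (log2 fold change of −0.31 with SE 0.08 and an edgeR adjusted p = 0.011, 0.554 without the block), although siRNA1 replicate 2 again lay within the NTC values. NPM1 stood at 1351, 1324 and 1287 CPM under NTC, 1227, 1381 and 1071 CPM under siRNA1 and 1264, 1483 and 1282 CPM under siRNA2. Its groups overlapped and it did not pass (log2 fold change −0.11, SE 0.07), and since the annotation names 45 NPM1 pseudogenes, reads that fit several copies make its level uncertain. NOLC1 (−0.20), the GTP-binding protein nucleostemin GNL3 (−0.16) and the RNA helicase DDX21 (−0.14) did not pass either.

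Among the 4 genes of the box C/D snoRNP and the U3 particle, 0 passed in edgeR, DESeq2 or limma-voom. Unadjusted, NOP56 alone had a p under 0.05 (0.0221), and its log2 fold change was −0.15 (SE 0.06). NOP56 and NOP58 form the core of the particle with FBL. NOP56 stood at 482, 478 and 417 CPM under NTC, 405, 468 and 369.5 CPM under siRNA1 and 434, 501 and 398 CPM under siRNA2. Its siRNA1 replicates 1 and 3 were below all NTC values, and replicate 2 was within them. FBL, with the E-box printed above, stood at 309, 300.1 and 311 CPM under NTC, 296, 305 and 271 CPM under siRNA1 and 274, 309 and 251 CPM under siRNA2. All of its groups overlapped, and its whole range over 9 libraries was 0.31 on the log2 scale, the smallest among the 39. NOP58 had a log2 fold change of −0.13 and RRP9, which is specific to U3, of −0.08.

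Of 11 small subunit assembly genes 3 fell, WDR43, RRP12 and BYSL, and 8 did not pass. WDR43 (ENSG00000163811.11, chromosome 2 from 28894643 to 28948222 on the plus strand) is a part of the processome that acts on the early 18S precursor, and its promoter window held the E-box printed above. It stood at 170.1, 162 and 132 CPM under NTC, 123, 152 and 99.1 CPM under siRNA1 and 154, 180.2 and 140.0 CPM under siRNA2. Within the siRNA1 group replicates 1 and 3 were below every NTC library, and replicate 2 was between NTC replicates 1 and 3. WDR43 was 1.25-fold lower (log2 fold change of −0.33 with SE 0.07 and an edgeR adjusted p = 0.0036, 0.515 without the block). RRP12 (ENSG00000052749.13, chromosome 10 from 97356358 to 97426076 on the minus strand) stood at 33.9, 43.5 and 39.2 CPM under NTC, 25.8, 37.3 and 33 CPM under siRNA1 and 30.9, 42.4 and 32.7 CPM under siRNA2 and fell with a log2 fold change of −0.29 (SE 0.07, edgeR adjusted p = 0.00792, 0.592 without the block). BYSL (ENSG00000112578.9, chromosome 6 from 41921188 to 41933046 on the plus strand), which acts in the final steps of the small subunit, stood at 72.1, 78.8 and 74.5 CPM under NTC, 59.1, 72.2 and 62.5 CPM under siRNA1 and 67.6, 81.2 and 67.4 CPM under siRNA2. For both genes the siRNA1 and NTC groups overlapped through siRNA1 replicate 2. BYSL fell with a log2 fold change of −0.22 (SE 0.06, edgeR adjusted p = 0.0241, 0.491 without the block).

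The other 8 small subunit genes had log2 fold changes from −0.17 (TSR1, a factor of the late pre-40S particle) to −0.07 (LTV1, which leaves that particle late in its maturation). Between them lay UTP15 (−0.16), the scaffold proteins UTP20 (−0.09) and HEATR1 (−0.08), NOP14 (−0.12), the helicase DDX10 (−0.14) and NAT10, the enzyme that acetylates 18S rRNA (−0.14). NOP14, TSR1 and HEATR1 share exons with genes on the opposite strand, and unstranded counting kept 64.1%, 61.1% and 68.8% of the reads that the 2 strand counts assigned to them. With the sum of the strand counts in place of the unstranded count, 9 of 39 members fell instead of 10.

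Of 12 large subunit assembly genes, PPAN, RRS1 and GRWD1 fell and 9 did not pass. PPAN (ENSG00000130810.19, chromosome 19 from 10106289 to 10111634 on the plus strand) differed most of all members. It stood at 7.36, 9.28 and 7.74 CPM under NTC, 4.72, 6.22 and 5.35 CPM under siRNA1 and 7.51, 8.46 and 7.14 CPM under siRNA2. All siRNA1 values were below all NTC and all siRNA2 values. PPAN was 1.5-fold lower (log2 fold change of −0.58 with SE 0.09 and an edgeR adjusted p = 8.7e-05, 0.0854 without the block), and its differences within replicate numbers 1, 2 and 3 were −0.64, −0.58 and −0.53 on the log2 scale. Of its exon bases 59.8% are shared with the read-through gene PPAN-P2RY11 and with P2RY11, so the count comes from the remaining bases. P2RY11, a purine receptor gene just downstream, had a log2 fold change of −0.58 (SE 0.09, edgeR adjusted p = 7.47e-05).

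RRS1 (ENSG00000179041.3), which loads the 5S RNA particle on the pre-60S subunit, stood at 65.4, 83.2 and 63.5 CPM under NTC, 49.1, 80.7 and 48.8 CPM under siRNA1 and 59, 87.9 and 54 CPM under siRNA2. The groups overlapped widely, since siRNA1 replicate 2 was above NTC replicates 1 and 3, and the call came from the differences within replicate numbers (−0.41, −0.04 and −0.38 for 1, 2 and 3; log2 fold change of −0.28 with SE 0.07 and an edgeR adjusted p = 0.0132, 0.808 without the block). GRWD1 (ENSG00000105447.12, chromosome 19 from 48445773 to 48457022 on the plus strand), a WD-repeat histone-binding protein of pre-60S particles, stood at 68.1, 70.2 and 69.1 CPM under NTC, 54.1, 66.2 and 56 CPM under siRNA1 and 64.7, 73.2 and 53.9 CPM under siRNA2. Its siRNA1 values were all below its NTC values (log2 fold change of −0.24 with SE 0.07 and an edgeR adjusted p = 0.0373, 0.517 without the block). Groups that did not overlap on the lower side were found for 3 of 39 members, POLR1A, PPAN and GRWD1, which is 7.69% against 8.27% of all genes tested. The 3 members of the PeBoW complex, BOP1 (−0.23, edgeR adjusted p = 0.0532), PES1 (−0.11) and WDR12 (−0.14), did not pass. Neither did the rRNA methyltransferase NOP2 (−0.11), NOP16 (−0.20), WDR74 (−0.18), the helicase DDX18 (−0.17), MRTO4 (−0.19) and NIP7 (−0.09), given as log2 fold changes. NOP16, WDR74 and POLR1C share exons with genes on the opposite strand, and their unstranded counts held 47.0%, 65.4% and 73.9% of the reads that the strand counts assigned to them. Of the exon bases of NOP2, 54.4% are shared with a gene on its own strand.

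Within replicate numbers the differences varied in size. In replicate number 1 all 39 members were lower in the siRNA1 than in the NTC library, with a median difference of −0.26 on the log2 CPM scale. In replicate number 3 all 39 were lower as well, with a median of −0.22. In replicate number 2, 21 of 39 were lower and the median was −0.02. Over all genes tested the shares lower were 49.2%, 51% and 48.7% at numbers 1, 2 and 3, with medians of 0.01, −0.01 and 0.01. In all 3 numbers 21 of 39 members were lower (53.8%), against 22.8% of all genes tested, and 0 members were higher in all 3 (23.1% of all genes). PPAN (−0.64, −0.58 and −0.53), POLR1A (−0.40, −0.29 and −0.26) and RRP12 (−0.39, −0.22 and −0.25) were the members at least 0.2 lower at each number. With 1 library for each label and number, whether the difference itself changed between numbers could not be tested.

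**Figure D3:**
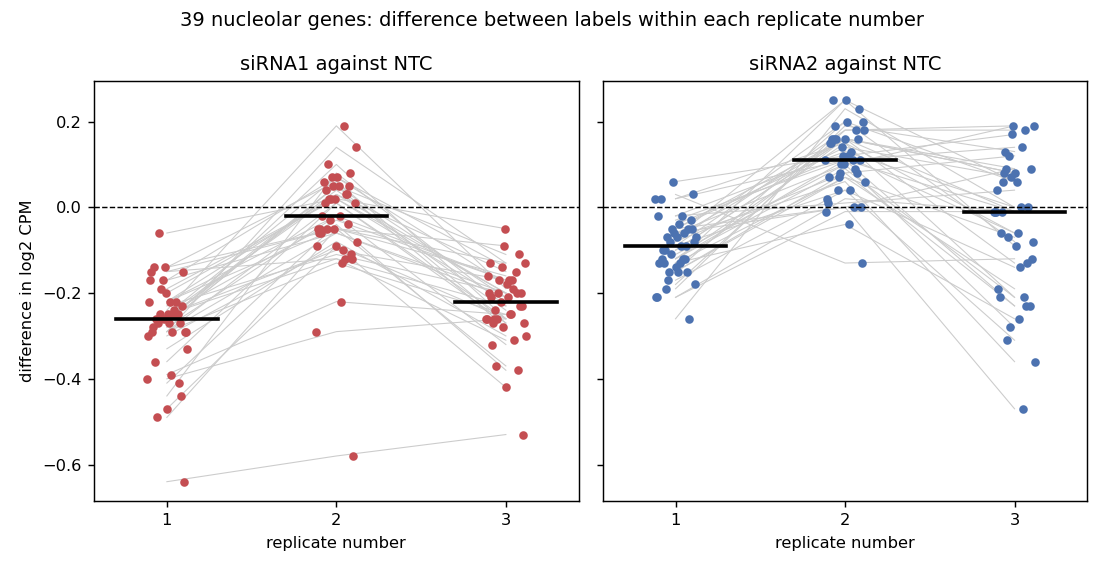
Difference in log2 CPM between the siRNA1 and NTC libraries (left) and between the siRNA2 and NTC libraries (right) with the same replicate number, for each of the 39 genes (points; grey lines join the same gene; black bars are medians). On the left the points of replicate numbers 1 and 3 are all below 0 and those of number 2 are centred on −0.02.

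Members also differed between replicate numbers. With the label held in the fit, 36 of 39 members (92.3%) passed the edgeR test of the replicate number, against 35.8% of all genes tested and 44.9% of genes at 5 CPM or more. Averaged over the 3 labels, the mean of every one of the 39 was highest at replicate number 2, where 33.3% of all genes and 36.6% of those at 5 CPM or more had their highest mean. Within labels, replicate 2 was the highest library for 39 of 39 members under siRNA1 (32.3% of all genes), 38 of 39 under siRNA2 (33.7%) and 26 of 39 under NTC (33.4%). NTC replicate 1 exceeded NTC replicate 2 for 13 members, RRN3, UBTF, NCL, NPM1, NOLC1, GNL3, FBL, NOP56, HEATR1, WDR43, NOP14, MRTO4 and NIP7, and the exception under siRNA2 was RRN3. Both together, a pass and the highest mean at number 2, held for 36 members, 11.6% of all genes and 15.8% of genes at 5 CPM or more. FBL (edgeR adjusted p = 0.222), HEATR1 (0.0969) and NPM1 (0.053) did not pass. RRS1 had means of 57.8, 83.9 and 55.4 CPM at numbers 1, 2 and 3 (edgeR adjusted p = 1.46e-06), and DDX21 of 347, 438 and 313 CPM (edgeR adjusted p = 4.48e-05). NOP2 had 70.8, 98.2 and 78.8 CPM and NOP16 29.6, 40.9 and 30.5 CPM. The median of the 39 was 0.23 higher at number 2 than at number 1 and 0.28 higher than at number 3 on the log2 scale, both larger in size than the median of −0.16 between the siRNA1 and NTC labels. The labels do not say what a replicate number stands for. By role, 6 of 6 RNA polymerase I genes, 5 of 6 scaffold genes, 3 of 4 box C/D genes, 10 of 11 small subunit genes and 12 of 12 large subunit genes passed. Of 11 other RNA polymerase I genes, from a list described below, 3 passed (27.3%) and 6 had their highest mean at number 2.

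MYC mRNA was set beside the members because they are known as its targets. MYC stood at 397, 494 and 411 CPM under NTC, 278, 466 and 289.7 CPM under siRNA1 and 335, 548 and 353 CPM under siRNA2. The 3 replicate 2 libraries held the 3 highest values, and siRNA1 replicates 1 and 3 the 2 lowest. MYC fell under the siRNA1 label with the block (log2 fold change of −0.37 with SE 0.08 and an edgeR adjusted p = 0.00162, 0.683 without the block), with differences of −0.52, −0.09 and −0.50 at numbers 1, 2 and 3. It passed the test of the replicate number as well (edgeR adjusted p = 3.28e-06), with means of 336.5, 502.6 and 351.0 CPM at numbers 1, 2 and 3. The members' median deviation from each gene's mean was 0.16, 0.11 and 0.27 in NTC, siRNA1 and siRNA2 replicate 2, and −0.20 and −0.24 in siRNA1 replicates 1 and 3. The libraries with the 3 highest and the 2 lowest MYC values were therefore also those with the 3 highest and the 2 lowest member medians. The order was the same within the 3 highest, but not within the 2 lowest or among the remaining libraries. For example, NTC replicate 3 was above NTC replicate 1 in MYC (411 and 397 CPM) and below it in the member median (−0.04 and 0.07). Whether MYC has a part in the members' levels was not tested. MYCN had 0 counts in every library and MYCL at most 3. Of the 10 MYC network genes tested, 1 fell (MYC) and 0 rose. Over all genes tested 5.93% fell and 5.48% rose, and over genes at 5 CPM or more 9.1% fell. The 1 call is therefore not a result about the network. MAX, the partner of MYC, had a log2 fold change of −0.05.

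**Figure D4:**
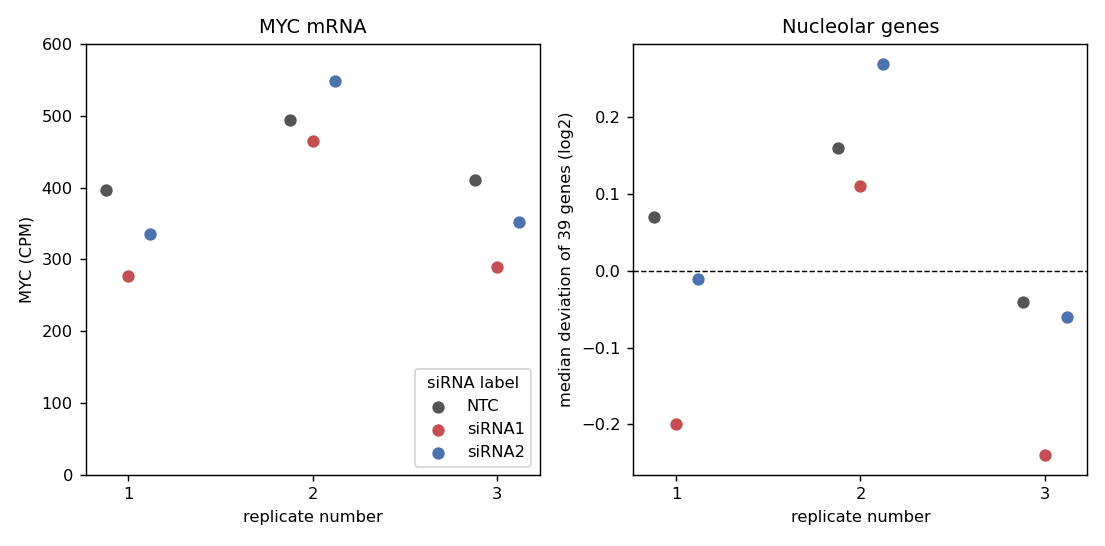
MYC mRNA in CPM (left) and the median over the 39 genes of log2 CPM minus each gene's mean (right), by replicate number and siRNA label, 1 point per library. In both panels the replicate 2 libraries are highest, and siRNA1 replicates 1 and 3 are lowest.

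The second comparison asked the same of the libraries labelled siRNA2 and NTC, which shares the NTC libraries with the first. No member passed in edgeR with the block, where 28 of all genes tested did (0.151%, 0.0862% higher and 0.0647% lower), and limma-voom and DESeq2 with the block also called 0 members. At an unadjusted p under 0.05 there were 2 of 39 (5.13%, against 8.37% of all genes), BOP1 (log2 fold change −0.18, SE 0.08) and FBL (−0.15, SE 0.07). Without the block edgeR called 0 members and 0% of all genes, and 0 of 39 and 2.11% of all genes were under 0.05 unadjusted. The median log2 fold change was 0.01, with 18 members below 0 and 21 above, and 51.2% of all genes were below 0. BOP1 stood at 143, 167 and 157 CPM under NTC, 120.2, 154 and 127 CPM under siRNA1 and 137, 167 and 113 CPM under siRNA2. Its siRNA2 replicate 3 value was the lowest of the 9, and its other siRNA2 values lay close to the NTC values of the same number. The highest fold change was that of UTP20 (0.12, SE 0.06), at 78.3, 92.8 and 76.5 CPM under NTC, 71.2, 89.4 and 71.9 CPM under siRNA1 and 81.9, 101 and 86.3 CPM under siRNA2. The members' median difference was −0.09, 0.11 and −0.01 at replicate numbers 1, 2 and 3. In all 3 numbers 3 of 39 members were lower, POLR1B, RRP12 and BOP1 (7.69%, against 13.6% of all genes tested). Standard errors were 0.06 to 0.09 over the members. Differences well above the standard error could still miss the adjusted cut, as that of BOP1 did (−0.18, SE 0.08). The smallest difference that would have passed was not determined, so the lack of calls does not exclude a modest change.

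The third comparison set the libraries labelled siRNA1 against those labelled siRNA2, which also tests whether their differences from NTC were unequal. With the block 8 of 39 members were lower under the siRNA1 label and 0 higher (20.5% lower). Of all genes tested 5.27% were lower, 5.29% higher and 10.6% either, and of genes at 5 CPM or more 8.37% were lower. Without the block edgeR called 0 members and 1.08% of all genes, with 5 members at an unadjusted p under 0.05 (12.8% of members against 10% of all genes). With the block DESeq2 called 12 and limma-voom 10. The 8 were POLR1A, NOLC1, LYAR, UTP20, WDR43, TSR1, WDR12 and PPAN. This comparison and the first share the siRNA1 libraries, so their calls are not independent of each other. Fold changes were below 0 for 37 of 39 members, against 47.6% of all genes and 52% of those at 5 CPM or more, and the exceptions were FBL (0.06) and RRP9 (0.02). The count was 13 without NTC replicate 2, 3 without siRNA1 replicate 1, 3 without siRNA1 replicate 3 and 4 without siRNA2 replicate 2. Shares of all genes called in these fits are not given here, so the changes cannot be read as particular to the members.

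POLR1A (log2 fold change of −0.36 with SE 0.06 and an edgeR adjusted p = 0.000372) and PPAN (log2 fold change of −0.51 with SE 0.09 and an edgeR adjusted p = 0.000511) had no overlap between the siRNA1 and siRNA2 groups, as 2 of 39 members (5.13%, against 7.23% of all genes tested). WDR43 was 1.28-fold lower (log2 fold change of −0.36 with SE 0.07 and an edgeR adjusted p = 0.00175) and LYAR 1.28-fold lower (log2 fold change of −0.35 with SE 0.08 and an edgeR adjusted p = 0.00384). NOLC1 (ENSG00000166197.16, chromosome 10 from 102152176 to 102163871 on the plus strand) stood at 489.5, 473 and 410.4 CPM under NTC, 381, 477 and 344 CPM under siRNA1 and 447, 563 and 428 CPM under siRNA2. It was lower under the siRNA1 label at each replicate number (−0.23, −0.24 and −0.32), although its groups overlapped (edgeR adjusted p = 0.0172). WDR12 (ENSG00000138442.9, chromosome 2 from 202874782 to 203014798 on the minus strand) stood at 60.1, 64.5 and 56.5 CPM under NTC, 50.4, 65.8 and 49.2 CPM under siRNA1 and 56.6, 73.3 and 63.9 CPM under siRNA2, and its log2 fold change was −0.23 (SE 0.07, edgeR adjusted p = 0.0373). TSR1 (ENSG00000167721.10, chromosome 17 from 2322503 to 2337507 on the minus strand) stood at 51.4, 52.9 and 47.8 CPM under NTC, 43.1, 49.2 and 42.6 CPM under siRNA1 and 50.6, 57.8 and 47.8 CPM under siRNA2, with a log2 fold change of −0.21 (edgeR adjusted p = 0.0382), and UTP20 (ENSG00000120800.4, chromosome 12 from 101280109 to 101386616 on the plus strand) had the same value (−0.21, edgeR adjusted p = 0.0281). In all 3 replicate numbers 28 of 39 members were lower under siRNA1 than under siRNA2 (71.8%, against 21.6% of all genes tested). At numbers 1, 2 and 3 the members lower were 38, 38 and 29 of 39, with medians of −0.18, −0.13 and −0.23, and over all genes 49.6%, 50.1% and 47% were lower.

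Other genes of ribosome production were taken from 4 lists that do not hold the members. Of 116 such genes tested in siRNA1 against NTC, 23 fell and 0 rose with the block, 0 passed without it, and 111 of 116 fold changes were below 0 (median −0.12), while 93 did not pass. Over all genes tested 5.93% fell and 48.9% were below 0, and over genes at 5 CPM or more 9.1% fell and 54.8% were below 0. Of 11 other RNA polymerase I genes 3 fell, the subunit gene ZNRD1 (−0.24), the promoter selectivity factor TAF1B (−0.23) and the termination factor TTF1 (−0.22), given as log2 fold changes. Of 45 other small subunit genes 9 fell, PWP2 (−0.30), UTP18 (−0.28), UTP3 (−0.25) and IMP3 (−0.24) among them. Of 48 other large subunit genes 6 fell, URB2 (−0.36), NLE1 (−0.33), RPF2 (−0.28) and NIFK (−0.24) among them. Of 12 genes of box H/ACA particles and snoRNP assembly 5 fell. These included the AAA+ ATPases RUVBL2 (−0.57) and RUVBL1 (−0.24) of the assembly chaperone, and the H/ACA assembly factors SHQ1 (−0.54) and NAF1 (−0.31). Of 13 MYC targets outside the nucleolus 3 fell, the telomerase gene TERT (−1.37), the chaperonin gene HSPE1 (−0.60) and ODC1 (−0.57), the first enzyme of polyamine synthesis. The other 10 did not pass, and of all 13 fold changes 9 were below 0 and 4 above (median −0.06). TERT and ODC1 passed without the block as well (edgeR adjusted p = 0.00946 and 0.00671). Under the siRNA2 label 0 of the 116 passed in edgeR against NTC, and 5 had an unadjusted p under 0.05 (4.31%, against 8.37% of all genes). In the test of the replicate number 66 of 116 passed (56.9%, against 35.8% of all genes and 44.9% of those at 5 CPM or more), and 84 of 116 had their highest mean at number 2 (33.3% of all genes). By list, those passing were 3 of 11 RNA polymerase I genes, 26 of 45 small subunit genes, 30 of 48 large subunit genes and 7 of 12 box H/ACA and assembly genes.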

How the data were processed

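The deposited values were counts, 1 table of whole read numbers by gene for every library, without normalization. GRCh38 is the build that the submitters' processing notes name; aligner and annotation were not stated there. Because the labels' protocols name an unstranded kit, the column counted on both strands was read, without the 4 summary lines that head a table. Reads on exons that overlap another gene are left unassigned in such counts, which lowers the members that share exons. Symbols, positions and exon lengths are from GENCODE release 29, which held 57447 of the 58096 identifiers (the others took 0.0317% of counts).

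One edgeR 4.0.16 quasi-likelihood fit (R 4.3.3) held all 9 libraries, with the siRNA label and, as a block, the replicate number. TMM factors ran from 0.975 to 1.04, and filterByExpr kept genes by label with a minimum count of 10 and a minimum total of 15. A gene passed below 0.05 after Benjamini-Hochberg adjustment over 18554 genes. SE is the size of the log2 fold change divided by the root of F. The replicate number was tested with the label in the fit. CPM used the TMM factors, differences within a replicate number used log2 CPM with a prior count of 2, and RPKM divided CPM by the merged exon length. The scripts were tested on simulated data with log2 changes of 0.4, 0.7 and 1 planted in siRNA1 against NTC, of which 85.1%, 100% and 100% were recovered. Among the genes left unchanged, 8 were called in that comparison. Counts were drawn from the fitted model with the block, so the use of the block was not checked. Smaller changes, such as those of most members, were not simulated.

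The replicate numbers are those of the sample titles and were taken to pair the samples. Over all genes, deviations from label means correlated at r = 0.383 to 0.623 in the 9 pairs with the same number and at −0.445 to 0.0693 in the 18 other pairs. A gene's deviations within a label cancel out, so positive values in same-number pairs bring negative ones in other pairs. The gap between the ranges is thus partly arithmetic. No 2 replicates were alike within counting noise (chi-square per degree of freedom of 36.3 or more).

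Members, roles and lists were chosen with earlier results of these data known. All 39 members could be named. Those past a label comparison are given with values, as are, for a role with no such gene, its 2 members of highest RPKM, with TLX1, MYC and up to 4 passing genes of each other list. P2RY11, MAX, MYCN, MYCL and members given for a rank were picked after their values were seen. Alternatives were no block, RLE factors, library size alone, no filter beyond 1 count, DESeq2 1.42.0, limma-voom (limma 3.58.1), only the groups compared, each library left out, and the 3 replicate 1 libraries left out. The sum of strand counts and leaving out the replicate 2 or replicate 3 libraries were added after seeing the data.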

Additional observations from a re-analysis of the deposited data

Results flagged for a closer look

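The difference from NTC was unequal under the 2 TLX1 siRNA labels for 8 members, by the edgeR test of siRNA1 against siRNA2 with the replicate block. The log2 difference of the 2 effects was −0.51 for PPAN, −0.36 for POLR1A, −0.36 for WDR43 and −0.35 for LYAR. It was −0.26 for NOLC1, −0.23 for WDR12, −0.21 for UTP20 and −0.21 for TSR1. All 8 were lower in siRNA1 than in siRNA2 at each of the 3 replicate numbers. POLR1A, WDR43 and PPAN passed in all 9 fits that left out 1 library, and none of the 8 passed without the replicate block (edgeR adjusted p from 0.166 for PPAN to 0.63 for UTP20).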

How the results depend on the processing

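The calls depended on the replicate block. With no replicate block edgeR called 0 members in siRNA1 against NTC (10 with it), 0 in siRNA1 against siRNA2 (8 with it) and 0 in siRNA2 against NTC in both fits. With only the groups compared and the replicate block kept, 16 and 13 members passed in siRNA1 against NTC and in siRNA1 against siRNA2. Over the 9 fits that left out 1 library, 2 to 20 members passed in siRNA1 against NTC, 3 to 13 in siRNA1 against siRNA2, 0 in siRNA2 against NTC and 25 to 36 in the test of the replicate number. Without the 3 replicate 1 libraries 1 and 4 members passed in the same order, without the 3 replicate 3 libraries 4 and 4, and without the 3 replicate 2 libraries 16 and 8, while siRNA2 against NTC gave 0 each time. RLE factors, library size alone, no filter, DESeq2, limma-voom and the sum of strand counts gave 9 to 13 members in siRNA1 against NTC, 7 to 12 in siRNA1 against siRNA2 and 34 to 37 for the replicate number. Each call between labels under these settings was on the lower side. Where counts changed, the cause was not tested. Apart from the fit without the block, the shares of all genes called under these settings are not given here. Changes in the member counts therefore cannot be read as particular to the members. The effect of depth was not tested. The least covered member, PPAN, had 430 counts in its lowest library and every other member more.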
